A study of Mus musculus with 2 samples.

Results

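Peaks of chromosomes 11 and 3 were described in a chromatin immunoprecipitation (ChIP-seq) from heads of E10.5 mouse embryos, in which the antibody recognised GFP, the green fluorescent protein. Both libraries of the study carry the same labels. These name no genotype, no sex, no untagged control and no protein that carried GFP, so the 2 libraries form 1 group. The study's title concerns histone H3.2, a core histone that is made and laid into chromatin as DNA is copied. The counted peaks had their summit (the position of highest read coverage) above 6 Mb and more than 3 Mb below the last peak end of the chromosome. They came from library 1 alone and numbered 36475 on chromosome 11 and 26026 on chromosome 3, 62501 in all of the 584724 peaks of that library. The chromosomes were chosen by this library's peak density, the highest and the lowest of the autosomes, so density and the values that follow from it are given as a description with no test. Whether embryos were pooled is not stated in the labels. Peak lists hold no expression values, so the labelled tissue could not be checked against marker genes.

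Mouse chromosomes alternate between gene-rich stretches, where chromatin tends to be open and copied early, and gene-poor stretches, often called gene deserts, that tend to be compact and copied late. Chromosome 11 is among the gene-rich mouse chromosomes and holds, among others, the Hoxb cluster and the type I keratin genes. Chromosome 3 is long and gene-poor, with one gene-dense stretch that carries the epidermal differentiation complex, a cluster of genes for skin barrier proteins.

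Start windows are printed for the strongest peaks at gene starts in rich and in poor surroundings, which are not typical ones. For each chromosome, the protein-coding gene was taken whose peak of highest fold covered at least 100 of the 300 bases around its start. This was done once among bins of 1 Mb with over 400 summits and once among bins with under 100. The sequences are from RefSeq on build GRCm38.p6 and run from 250 bases before the start to 50 bases from it on. Capitals mark the bases that the deposited peak covered.
Fbxo39: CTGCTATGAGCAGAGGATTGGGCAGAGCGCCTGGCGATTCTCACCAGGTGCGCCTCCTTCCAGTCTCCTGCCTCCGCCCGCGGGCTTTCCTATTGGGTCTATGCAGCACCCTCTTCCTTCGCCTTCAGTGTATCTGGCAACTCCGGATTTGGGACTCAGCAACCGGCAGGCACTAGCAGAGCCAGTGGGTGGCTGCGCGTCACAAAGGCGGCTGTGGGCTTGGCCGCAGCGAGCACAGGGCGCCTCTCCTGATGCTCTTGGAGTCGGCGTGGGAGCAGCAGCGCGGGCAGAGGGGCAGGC
Kcnj2: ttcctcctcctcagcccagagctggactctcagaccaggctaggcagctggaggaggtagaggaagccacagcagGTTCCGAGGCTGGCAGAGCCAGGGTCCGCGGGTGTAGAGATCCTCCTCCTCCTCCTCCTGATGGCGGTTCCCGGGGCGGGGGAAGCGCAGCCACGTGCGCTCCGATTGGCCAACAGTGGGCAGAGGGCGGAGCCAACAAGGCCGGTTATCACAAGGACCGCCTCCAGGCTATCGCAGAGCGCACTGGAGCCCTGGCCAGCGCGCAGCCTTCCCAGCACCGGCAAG
Lrrc71: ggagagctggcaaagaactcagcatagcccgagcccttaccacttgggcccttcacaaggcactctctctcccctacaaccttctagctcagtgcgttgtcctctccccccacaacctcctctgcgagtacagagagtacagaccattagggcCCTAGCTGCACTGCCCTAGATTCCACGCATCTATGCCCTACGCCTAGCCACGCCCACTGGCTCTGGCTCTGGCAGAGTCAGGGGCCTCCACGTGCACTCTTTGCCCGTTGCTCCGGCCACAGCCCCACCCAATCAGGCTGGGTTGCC
Pabpc4l: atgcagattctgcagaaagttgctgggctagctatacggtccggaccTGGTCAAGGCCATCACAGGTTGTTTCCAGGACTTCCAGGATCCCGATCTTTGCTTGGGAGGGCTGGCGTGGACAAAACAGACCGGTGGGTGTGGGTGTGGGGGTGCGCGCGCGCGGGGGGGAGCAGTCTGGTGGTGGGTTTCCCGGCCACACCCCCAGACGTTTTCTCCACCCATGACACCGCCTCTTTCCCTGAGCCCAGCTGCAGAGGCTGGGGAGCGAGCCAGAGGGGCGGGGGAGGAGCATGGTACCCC
Fbxo39, an F-box protein gene at chr11:72314194-72314493 on the plus strand, lay in a bin of 485 summits, and a peak with a fold of 7.0 over the local background covered all 300 bases. Kcnj2, which encodes an inward-rectifier potassium channel, lies at chr11:111065914-111066213 on the plus strand in a bin of 79 summits, and its peak had a fold of 4.88. On chromosome 3, the window of Lrrc71, a leucine-rich repeat protein gene, at chr3:87748574-87748873 on the minus strand, lay in a bin of 438 summits and had a fold of 6.73. Pabpc4l, related to the poly(A)-binding protein genes, at chr3:46447892-46448191 on the minus strand, had a fold of 5.92 in a bin of 63 summits. The 4 windows held 64.7%, 66.7%, 60.7% and 63.7% G and C, and 19, 18, 9 and 15 CG dinucleotides, in the order printed. Over all start windows in bins over 400 summits, median G and C was 58.3% on chromosome 11 and 58.7% on chromosome 3. In bins under 100 it was 54.8% and 47.5%. Median folds of all peaks were 3.77 and 3.85 in bins over 400, and 4.04 on both chromosomes in bins under 100.

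Chromosome 11 held the most peaks per Mb of the 19 autosomes and chromosome 3 the fewest. The density was 323 peaks per Mb on chromosome 11 (95% exact Poisson interval 319.5 to 326) and 172 on chromosome 3 (170.4 to 175), against 239 on the other autosomes together. Intervals here and below cover counting error only, since 1 library gives no replicates. The next densest chromosome was 17, with 305 peaks per Mb, and the next sparsest was 16, with 189. Chromosome 11 therefore held 1.87 times the density of chromosome 3 (1.84 to 1.90), and its peaks covered 8.59% of the counted length, against 4.14% on chromosome 3 and 6.15% on the other autosomes.

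Gene density differed by a similar factor. Chromosome 11 had 12.9 protein-coding genes per Mb and chromosome 3 had 6.42, a ratio of 2.01 (1.85 to 2.18), with 8.30 on the other autosomes. Counted per gene, the chromosomes lay close together, at 25.1 peaks per gene on chromosome 11 and 26.9 on chromosome 3, a ratio of 0.933, with 28.8 on the other autosomes. By peaks per gene they ranked 17 and 14 of the 19 autosomes, where by peaks per Mb they ranked 1 and 19 and by genes per Mb 2 and 16. Peaks per gene ranged from 19.6 on chromosome 7 to 38.5 on chromosome 12. Chromosome 12 had fewer genes per Mb than chromosome 3 (5.81) and more peaks per Mb (224).

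**Figure D1:**
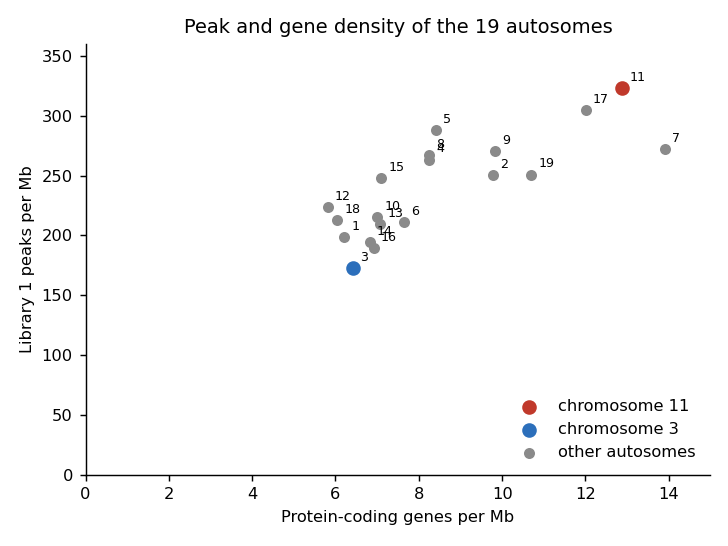
Peaks of library 1 per Mb (vertical axis) against protein-coding genes per Mb (horizontal axis) for the 19 autosomes, each point 1 chromosome labelled with its number. Chromosome 11 lies at 323 peaks and 12.9 genes per Mb, and chromosome 3 at 172 peaks and 6.42 genes per Mb.

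Medians of single peaks were close on the 2 chromosomes, while some shares differed. The authors' fold enrichment had a median of 3.85 on chromosome 11, 4.04 on chromosome 3 and 3.90 on the other autosomes, and the median −log10 q was 4.54 on all of them. Peaks with −log10 q of at least 5 made up 39.6% on chromosome 11 and 43.0% on chromosome 3. Median width was 208 bp on chromosome 11 and 190 bp on chromosome 3, and 8.60% and 5.65% of peaks were wider than 500 bp. At the summit, the pileup (how many extended reads overlapped) had a median of 14 on chromosome 11 and 15 on chromosome 3. Peaks called against the genome-wide background made up 64.1% on chromosome 11 (63.6 to 64.6) and 68.2% on chromosome 3 (67.6 to 68.8), against 66% on the other autosomes (65.9 to 66.1). The remaining peaks were called against a higher local background.

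The 5 peaks of highest fold on each chromosome are listed next, and nothing is read from so few. Of all summits, 54.0% on chromosome 11 and 42.5% on chromosome 3 lay inside protein-coding genes. Those within 1 kb of a gene end, 8.04% and 5.52%, are counted apart. On chromosome 11 the first, with a fold of 12.4, lay inside Shisa6, whose product binds AMPA-type glutamate receptors. The next 4 had folds of 9.69, 9.16, 8.95 and 8.89 and lay nearest to the lysozyme-like gene Lyzl6, the kinase gene Vrk2, the cyclin gene Ccng1 and the receptor partner gene Ramp3. Their distances from these genes were 3.39, 332, 334 and 7.83 kb. The highest on chromosome 3, at chr3:14669654-14670023, reached a fold of 12.4 with 50 reads at its summit (37.1 to 65.9). It lay 6.83 kb from Car13, a carbonic anhydrase gene. The other 4 had folds between 9.43 and 9.74 and lay 34.1 kb from the fibrinogen gene Fgg, 329.7 kb from Rwdd3, 126 kb from Ndst3 and 41.4 kb from Gm5150. Of these 10 peaks, those near Vrk2, Ccng1, Rwdd3 and Gm5150 lay in bins of 59 to 77 summits. Bins under 100 summits held 1373 of the 36475 peaks of chromosome 11 and 4125 of the 26026 of chromosome 3.

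Within each chromosome, summits were unevenly spread. Over 112 complete bins of 1 Mb, chromosome 11 held a median of 307.5 summits (range 43 to 822). Over 150 bins, chromosome 3 held a median of 127.5 (range 45 to 653), and the 2018 bins of the other autosomes had a median of 170 (range 30 to 979). The single lowest bins of the 2 chromosomes were thus alike, but the quartiles differed. The lower quartile was 137.75 on chromosome 11 and 72.25 on chromosome 3, and the upper quartile was 475 and 251. Bins with under 100 summits made up 20 of 112 on chromosome 11 (17.9%) and 59 of 150 on chromosome 3 (39.3%), against 30.2% over all autosomes. Bins with over 400 summits made up 40 on chromosome 11 (35.7%) and 9 on chromosome 3 (6%), against 19% over all autosomes. Both limits were chosen after the values were seen. Complete bins took in 35522 members on chromosome 11 and 25958 on chromosome 3, and the last, incomplete bins held the other 953 and 68.

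**Figure D2:**
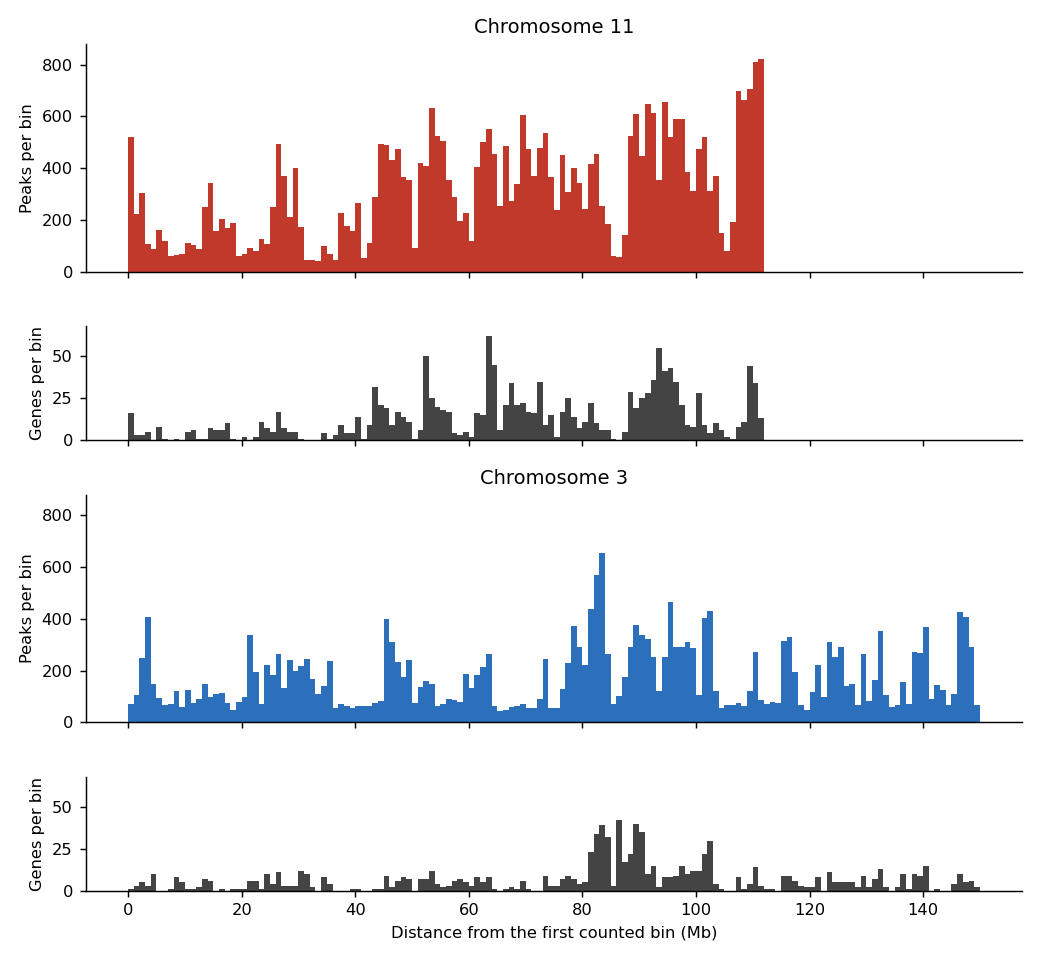
Summits and protein-coding genes per 1 Mb bin (vertical axes) along chromosomes 11 and 3, against the distance from the first counted bin in Mb. Only complete bins are drawn, and the tallest reach 822 summits on chromosome 11 and 653 on chromosome 3.

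Chromosome 11 was sparse over its first 40 Mb of counted sequence and dense beyond. From 6 to 26 Mb it held 170.5 summits per Mb (165 to 176) and from 26 to 46 Mb 165 (159.0 to 170.3), with 4 and 4.35 genes per Mb. From 46 to 66 Mb the density was 349 (341 to 358), and it was 398, 403 and 520.3 in the following stretches. The last of these, from 106 Mb to the end of the counted part, had 13.9 genes per Mb, fewer than the 20.5 of the stretch before it. On chromosome 3, a single 20 Mb stretch stood above the rest. It ran from 86 to 106 Mb with 304.5 summits per Mb (297 to 312) and 19.1 genes per Mb, while the other 7 stretches held 118 to 198 summits and 2.8 to 6.5 genes per Mb.

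The densest complete bins of chromosome 11 formed an unbroken run from 113 to 118 Mb, with 3699 summits and 110 genes in 5 Mb. The incomplete bin that follows, from 118 to 118.98 Mb, was not ranked, and its 953 summits exceed those of every complete bin. Over all bins of chromosome 11 with over 400 summits, 94.2% of genes had a peak within 1 kb of an annotated end. The bin from 117 to 118 Mb held 822 summits (767 to 880.2) and 13 genes, all 13 with such a peak. Septin9, the longest gene there, a cytoskeletal GTPase gene of 163 kb, held 159 summits in its body and had a fold of 5.69 at an end. Tk1, the thymidine kinase gene of dividing cells, had 5.92, and Tmem235 had 5.12. The bin from 116 to 117 Mb held 809 summits (754 to 867) and 34 genes. There Rhbdf2, which encodes an inactive rhomboid protein, had a fold of 6.73 at an end, and the exocyst subunit gene Exoc7 and Qrich2 each had 5.39. Rnf157, a ubiquitin ligase gene, was the longest of that bin and held 60 summits.

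Of all genes of chromosome 11 in bins over 400 summits, 94.2% had a peak at an end. In the bin from 115 to 116 Mb, 708 summits (657 to 762) lay among 44 genes, and all 44 had one. The immunoglobulin-like receptor gene Cd300ld5 and the chromatin gene Sap30bp had folds of 5.92 there, and the proton channel gene Otop2 had 5.66. Rab37, a small GTPase gene and the longest there, held 39 summits in 71.4 kb. From 113 to 114 Mb, 697 summits (646 to 751) lay among 8 genes, most of them inside the bodies of very long ones. Slc39a11, a zinc transporter gene of 405 kb, held 296 summits, and Sdk2, an adhesion gene known for its role in retinal wiring, held 231 in 291 kb. Sstr2, a somatostatin receptor gene, had the highest fold at an end in that bin, 6.19, and D11Wsu47e had 5.66. From 114 to 115 Mb, 663 summits (613 to 715) lay among 11 genes. Ttyh2, an anion channel gene, and Dnaic2, a dynein gene of cilia, are neighbours and had the same fold of 6.73, so a single peak can serve both, and Cd300a, an inhibitory receptor gene of blood cells, had 5.39.

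The emptiest bins of chromosome 11 were concentrated between 37 and 43 Mb, a run of 6 bins with 352 summits and 8 genes. In the bin from 39 to 40 Mb there were 43 summits (31.1 to 57.9), the fewest of the chromosome, and no protein-coding gene. Those from 37 to 38 and from 38 to 39 Mb held 47 each (34.5 to 62.5), the first of them reached by Tenm2, an adhesion gene of synapses. From 42 to 43 Mb there were also 47, among genes for subunits of the GABA-A receptor, the main inhibitory receptor of the adult brain. Gabrb2, of 213 kb, held 7 and had 3.50, and Gabra6 held 1 summit and had no peak at an end.

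Long genes of the emptiest and the densest bins differed widely in summit density, as the choice of bins by summits implies. The fifth emptiest bin, from 47 to 48 Mb, held 52 summits (38.8 to 68.2), and the gene Sgcd, which encodes delta-sarcoglycan of muscle, spans 98.9% of it and had a peak at an end. Over its whole 1018 kb Sgcd held 53 summits, or 52.0 per Mb, against 795 per Mb in Sdk2 and 730.2 in Slc39a11. Over the 575 genes of chromosome 11 longer than 20 kb, the median was 428 per Mb.

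Chromosome 3 had its densest bins from 87 to 90 Mb, a run of 3 bins with 1660 summits and 96 genes. The bin from 89 to 90 Mb held 653 summits (604 to 705) and 39 genes. Of these, 38 had a peak at an end, beside 93.1% of genes in all bins over 400 summits of this chromosome. Mtx1, a mitochondrial import gene, had a fold of 6.46, and the mucin gene Muc1 had 6.0. Kcnn3, a calcium-activated potassium channel gene of 152 kb, held 131 summits. From 88 to 89 Mb there were 569 summits (523 to 618) and 34 genes, with folds of 6.46 at the synaptotagmin gene Syt11 and 5.92 at the neighbours Gpatch4 and Naxe, and the longest gene, Gon4l, held 35 summits. From 87 to 88 Mb there were 438 (398 to 481) and 23 genes. The neighbours Lrrc71, shown above, and Pear1, a platelet receptor gene, had 6.73 each, and the insulin receptor relative Insrr had 6.46. Arhgef11, a guanine nucleotide exchange factor gene of 120.5 kb, held 41 summits.

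Outside that run, the bin from 101 to 102 Mb held 466 summits (425 to 510.3) with 8 genes. Cd2, an adhesion receptor gene of T cells, had a fold of 5.92 there, while Igsf3 held 68 summits in 86.4 kb. The bin from 108 to 109 Mb held 432 (392.2 to 475) with 30 genes. There 1700013F07Rik had a fold of 5.92, and the AMP deaminase gene Ampd2 and Cyb561d1 had 5.66, while Elapor1 held 38 summits in 81.1 kb.

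Of the 5 emptiest bins of chromosome 3, those from 45, 71 and 72 Mb lay in long empty runs. Runs of 9 bins under 100 summits lay from 42 to 51 Mb, with 596 summits and 4 genes, and from 70 to 79 Mb, with 559 summits and 12 genes. The longest such run of chromosome 11 was 6 Mb, and those of the other autosomes ranged from 3 Mb on chromosome 19 to 16 Mb on chromosome 16. The emptiest bin, from 71 to 72 Mb, held 45 summits (32.8 to 60.2) and no protein-coding gene. Its neighbour from 72 to 73 Mb held 50 (37.1 to 65.9) and the gut enzyme gene Sis, with 2 summits in 79.3 kb and none at an end. The bin from 24 to 25 Mb, wholly inside Naaladl2, held 49 (36.3 to 64.8). Naaladl2, of 1346 kb, had 71 summits in all, or 52.7 per Mb, and no peak at an end. From 125 to 126 Mb there were 50, with Ndst4, a heparan sulphate enzyme gene, and Ugt8a, an enzyme gene of myelin lipids. From 45 to 46 Mb there were 55 (41.4 to 71.6), with the protocadherin gene Pcdh10, which had a peak of fold 4.04 at an end.

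Peaks in poor bins were not weaker than peaks in rich bins. In bins under 100 summits the median fold was 4.04 on chromosome 11, on chromosome 3 and on the other autosomes. In bins over 400 it was 3.77 on chromosome 11, 3.85 on chromosome 3 and 3.78 on the other autosomes. The share of peaks with −log10 q of at least 5 was 46.1% (43.4 to 48.8) in poor and 38.7% (38.0 to 39.3) in rich bins of chromosome 11. On chromosome 3 it was 47.5% (46.0 to 49.1) in poor and 40.1% (38.6 to 41.6) in rich bins. The local background moved along with this. Peaks at the inferred genome-wide background made up 72.4% (69.9 to 74.7) in poor and 61.9% (61.2 to 62.6) in rich bins of chromosome 11, and 72.5% and 62.4% on chromosome 3. The part of the local background in the difference in fold was not tested.

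Bins with more genes held more summits on both chromosomes. Between summits and protein-coding genes per bin, Pearson's r was 0.67 and Spearman's rho was 0.82 over the 112 bins of chromosome 11, and 0.67 and 0.75 over the 150 bins of chromosome 3. The 17 other autosomes had r from 0.23 (chromosome 13) to 0.76 (chromosome 15), with a median of 0.57. The points of a chromosome share 1 library, and neighbouring bins resembled each other, with r = 0.71 between a bin and the next on chromosome 11 and 0.52 on chromosome 3. The values are therefore descriptions. With the base pairs inside genes in place of the number of genes, r was 0.55 on each of the 2 chromosomes. Summits per bin and position along the chromosome had r = 0.57 on chromosome 11 and 0.18 on chromosome 3, against -0.26 to 0.58 on the other autosomes.

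At like numbers of genes the median was higher on chromosome 11 than on chromosome 3, except in bins without genes. Bins without a protein-coding gene were alike, with medians of 62 summits on chromosome 11 (9 bins), 70.5 on chromosome 3 (22 bins) and 66 on the other autosomes (232 bins). With 3 to 5 genes the medians were 203.5 on chromosome 11, 142 on chromosome 3 and 165 on the others. With 11 to 20 genes they were 462.5 on chromosome 11 (22 bins, quartiles 365.5 to 505.3), 268 on chromosome 3 (12 bins, 208 to 295) and 361 on the others (361 bins, 224 to 538). The gap was smaller in the neighbouring classes, with medians of 284 on chromosome 11, 230 on chromosome 3 and 257 on the others at 6 to 10 genes, and 494, 391 and 463.5 at 21 and over, where the quartile ranges of chromosome 11 (415 to 604) and chromosome 3 (304.5 to 436.5) overlapped. Had each class held the mean of the other autosomes, chromosome 11 would have had 281 summits per bin and chromosome 3 would have had 212. The observed means were 317 and 173, which is 1.13 and 0.818 times those values.

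**Figure D3:**
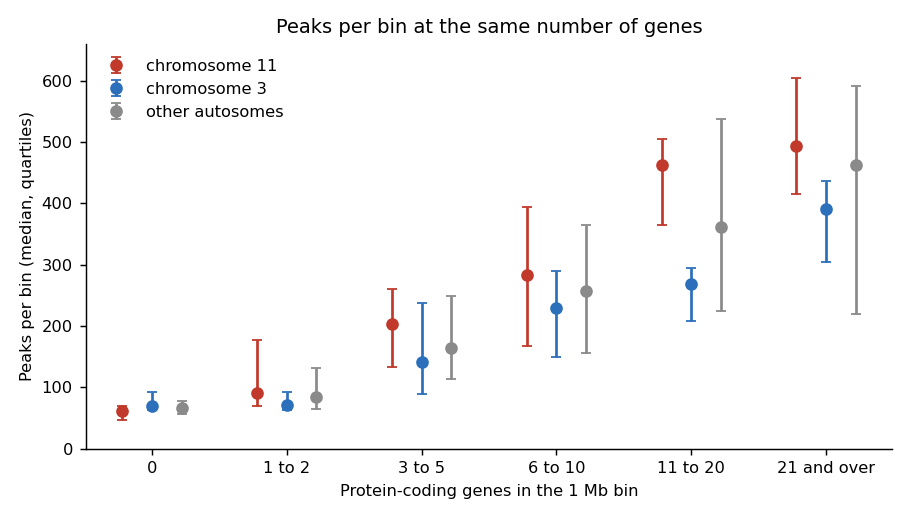
Median summits per 1 Mb bin with quartiles (vertical axis) by the number of protein-coding genes in the bin, for chromosome 11, chromosome 3 and the other autosomes. Medians are 62, 70.5 and 66 without genes and 462.5, 268 and 361 with 11 to 20 genes.

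The difference was present in every class of sequence. Between genes, summits numbered 223 per Mb on chromosome 11 (219 to 228) and 130.2 on chromosome 3 (128 to 133), against 171 on the other autosomes. Inside protein-coding genes they numbered 400.7 on chromosome 11 (395 to 406), 231 on chromosome 3 (227 to 235) and 305 on the others. Within 1 kb of a gene end the densities were 569 (549 to 590.3), 400.4 (379.9 to 422) and 489, in the same order. Chromosome 11 thus exceeded chromosome 3 by 1.72 times between genes (1.67 to 1.76), 1.73 times inside genes (1.69 to 1.77) and 1.42 times near gene ends (1.33 to 1.52). Between genes lay 30.5% of the summits of chromosome 11 and 43.3% of those of chromosome 3, where such sequence made up 44.2% and 57.3% of the length.

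**Figure D4:**
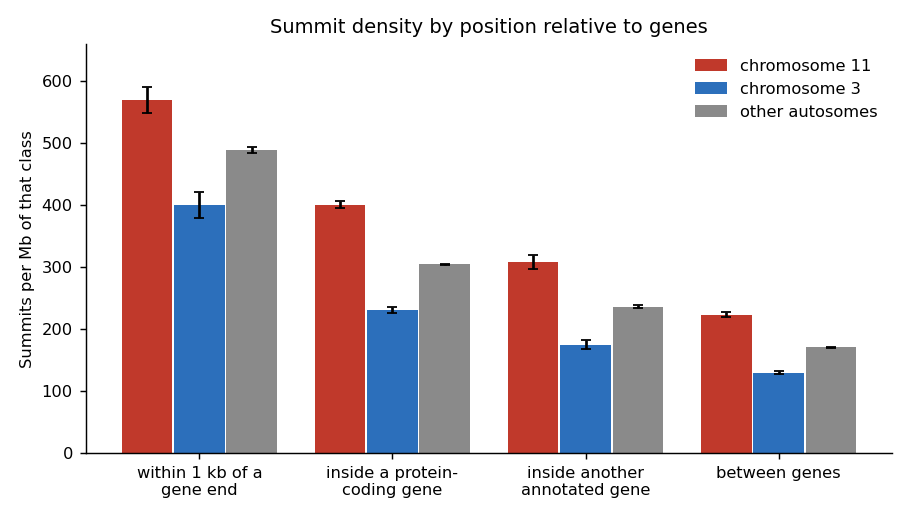
Summits per Mb of sequence (vertical axis) by position relative to genes for chromosome 11, chromosome 3 and the other autosomes, with 95% exact Poisson intervals. Each class is highest on chromosome 11 and lowest on chromosome 3, from 569 and 400.4 within 1 kb of a gene end to 223 and 130.2 between genes.

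In the steps on either side of the gene start the chromosomes lay close together. Start positions with strand were at hand for 1157 genes of chromosome 11 and 800 of chromosome 3. The genes without one were not evenly spread. On chromosome 3 the bins from 10 to 11 Mb, with 10 genes, and from 14 to 15 Mb, with 8, held no such start. No bin of chromosome 18 held at least 3. Values at starts, here and below, leave such genes out, also for the other autosomes. In the first 250 bp of the transcribed side, summits numbered 1068 per Mb on chromosome 11 (952 to 1194) and 1005 on chromosome 3 (871 to 1154), against 1013 on the other autosomes. The ratio of chromosome 11 to chromosome 3 was 1.06 there (0.887 to 1.28), and 1.31 in each of the next 2 steps (1.07 to 1.62 from 250 to 500 bp, 1.02 to 1.69 from 500 to 750 bp). The interval of the first ratio lies below that of the ratio between genes, and whether these ratios differ was not tested. The lowest density, from 1250 to 1000 bp before the start, was 252 on chromosome 11 (198 to 317) and 155 on chromosome 3 (105 to 220.0). In the 250 bp before the start, densities were 650.0 on chromosome 11 and 690 on chromosome 3, a ratio of 0.942 (0.752 to 1.18).

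**Figure D5:**
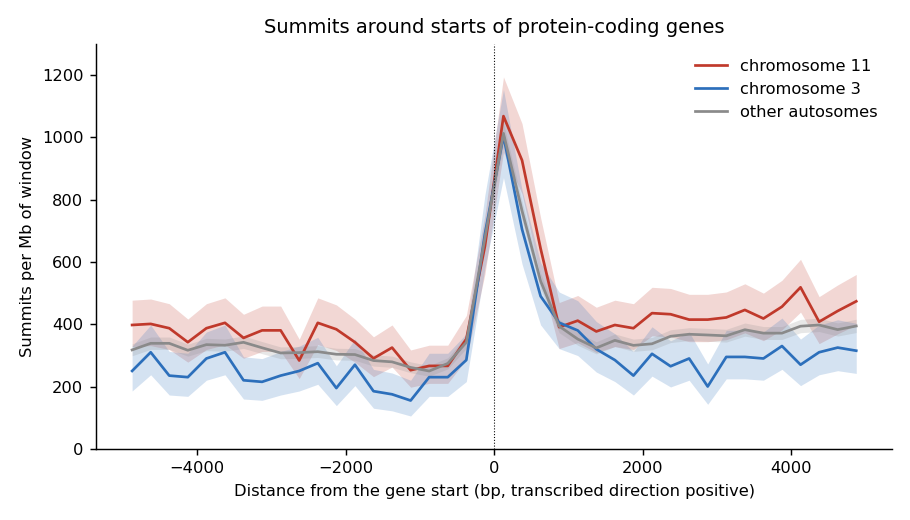
Summits per Mb (vertical axis) in steps of 250 bp around starts of protein-coding genes, with the transcribed direction to the right, for chromosome 11, chromosome 3 and the other autosomes. Bands are 95% exact Poisson intervals. The lines peak just after the start, at 1068, 1005 and 1013, and those of chromosomes 11 and 3 cross just before it, at 650.0 and 690.

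A peak overlapped the 300-base start window of 506 of 1157 genes on chromosome 11 (43.7%, exact interval 40.9 to 46.6) and of 329 of 800 on chromosome 3 (41.1%, 37.7 to 44.6), against 42.1% on the other autosomes. The share of G and C was set beside the peaks. Medians were 58.3% with and 56.7% without a peak on chromosome 11, and 60% with and 50.7% without on chromosome 3, against 59.7% and 52.3% on the other autosomes. Whether these gaps differ was not tested. CG dinucleotides, found as the letters CG on one strand, which are also CG on the other, had medians of 16 with and 17 without a peak on chromosome 11, and 18 with and 8 without on chromosome 3. Over all windows, medians were 57.7% G and C on chromosome 11, 56% on chromosome 3 and 56.7% on the other autosomes. Across bins with at least 3 such windows, mean G and C share and summits had r = 0.19 on chromosome 11 (85 bins) and 0.45 on chromosome 3 (81 bins). Base composition outside start windows was not used here, and its part in the density was not tested.

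Of both chromosomes, most genes carried a peak within 1 kb of an end. On chromosome 11 these were 1321 of 1455 protein-coding genes (90.8%, 89.2 to 92.2), and on chromosome 3 they were 795 of 969 (82%, 79.5 to 84.4), against 81.4% on the other autosomes. The share was also split by the number of summits in the gene's bin. The same peaks enter both counts, so a higher share in denser bins follows by construction. In bins over 400 summits the share was 94.2% on chromosome 11 (92.6 to 95.6), 93.1% on chromosome 3 (88.3 to 96.4) and 95.6% elsewhere. In bins of 100 to 400 it was 85.0% on chromosome 11 (81.5 to 88.1) and 82.8% on chromosome 3 (79.8 to 85.6), against 78.0% elsewhere, and the intervals of the 2 chromosomes overlapped in each of these classes. In bins under 100 summits, 12 of 19 genes had such a peak on chromosome 11 (63.2%, 38.4 to 83.7) and 54 of 96 on chromosome 3 (56.3%, 45.7 to 66.4), against 715 of 1716 on the other autosomes (41.7%, 39.3 to 44.0).

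Bins off the general relation were singled out after their values were seen. The bin from 92 to 93 Mb of chromosome 3 held 42 genes, the most of that chromosome, and 101 summits (82.3 to 123). It lies in the epidermal differentiation complex and holds Sprr and Lce genes, whose short products form the cornified envelope of skin, and Lor and Ivl, which encode loricrin and involucrin. Genes took up 12.6% of this bin but 42 of its 101 summits (41.6%, 31.9 to 51.8). That is 334 per Mb inside genes and 67.5 outside, a ratio of 4.94, where the median over bins with at least 5% in genes was 1.18 on chromosome 11, 1.19 on chromosome 3 and 1.20 on the other autosomes. By this ratio the bin ranked 1 of 119 on chromosome 3 and 12 of 1948 over all autosomes. Of the 42 genes, with a median length of 1.70 kb, 34 held exactly 1 summit, 4 held 2 and 4 held none. The best folds were 7.54 at Lce1g and 6.73 at Sprr2b, Sprr2d and Lce1h. Members of the Sprr and Lce families are alike in sequence, and how uniquely reads map there was not examined.

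Families were counted next by whether a peak lay at an end of each gene. On chromosome 11, all 27 type I keratin genes (exact interval 87.2 to 100%) and all 23 keratin-associated protein genes (85.2 to 100%) had one, beside 90.8% of all genes of the chromosome. Both families lie between 99 and 101 Mb. Intervals of families take genes as independent, also where they are neighbours, as here. How uniquely reads map to the keratin and keratin-associated genes was not examined. Folds reached 7.0 at Krt28 and 8.62 at Krtap1-4, and the lowest keratin was Krt36 with 3.67. The keratin-associated genes held 27 summits in bodies with a median of 0.951 kb. In the Hoxb cluster, whose homeobox genes pattern the head-to-tail axis, 9 of 10 genes had one. Hoxb9 had the highest fold, 5.12, Hoxb4 had 2.96, and Hoxb2 had none. Among 83 olfactory receptor genes, 61 had one (73.5%, 62.7 to 82.6). The bin from 73 to 74 Mb, which holds 19 of these receptors among 34 genes, had 273 summits, the fewest among bins with at least 15 genes on chromosome 11, and a peak at an end of 20 genes. Among 5 alpha globin genes, Hba-x, the embryonic chain, had a fold of 5.0, Hbq1b 4.58 and Hbq1a 3.50, while the near-identical adult genes Hba-a1 and Hba-a2 had no peak.

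On chromosome 3, 53 of 67 genes of the epidermal differentiation complex had one (79.1%, 67.4 to 88.1), beside 82% of all genes of the chromosome. All 7 glutathione S-transferase mu genes had one, led by Gstm3 with 6.19. None of the 10 replication-dependent histone genes did (upper limit of the exact interval 30.8%), and none held a summit in its body, in a bin of 339 summits. This set includes the H3 genes H3c13, H3c14 and H3c15. The 10 genes are neighbours at chr3:96219885-96270192, and the interval takes them as independent. How uniquely reads map there was not examined, so the lack of peaks is not read further. Among the amylase genes 3 of 7 had one, in a bin of 77 summits, and type 2 vomeronasal receptor genes in 3 of 7, in a bin of 78. For each the exact interval was 9.90 to 81.6%, which holds the 56.3% of all chromosome 3 genes in bins under 100 summits. Both are families of close copies, and how uniquely reads map there was not examined.

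Regulators of head and eye development were counted likewise: 21 of 22 had such a peak on chromosome 11 (95.5%, 77.2 to 99.9) and 18 of 20 on chromosome 3 (90%, 68.3 to 98.8). Both intervals hold the share over all genes of the chromosome, 90.8% and 82%. Rcvrn, the recoverin gene of photoreceptors, had a fold of 6.73, the retinoic acid receptor gene Rara 6.46 and Dlx3, of craniofacial development, 5.65. Meis1, a homeobox gene of the early eye, had no peak at an end and 17 summits over 139 kb, in a bin of 89. Sox9 and Otx1, regulators of neural crest and forebrain, had 3.46 and 3.34. On chromosome 3 the Wnt antagonist gene Sfrp2 had 7.44, Vangl1, of planar cell polarity, 6.35 and Foxo1 6.19. Sox2, a regulator of neural and lens progenitors, had 4.59 at an end and no summit in its body of 2.47 kb. Its bin, from 34 to 35 Mb, held 243 summits on 6.38% of gene sequence, and 6 of the 243 lay inside genes. Skil, a SMAD partner, and Abca4, a photoreceptor transporter, had no peak at an end.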

How the data were processed

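Peak lists of 2 ChIP-seq libraries (GFP antibody, heads at embryonic day 10.5) were used as deposited. Tools named in the submitters' processing notes are MACS2 2.1.0, Bowtie 1.1.2, Trimmomatic 0.33 and bcl2fastq 2.17, with builds mm10 and hg38. Their settings and any control are not given in the sources used here. There is 1 list per library. The deposited columns give a score, the fold enrichment of the summit over local background as a ratio, the −log10 p-value and the −log10 q-value, all the authors' values, and the summit offset. They were used to describe and rank peaks within library 1.

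Members and gene lists were chosen with earlier results of these data known. Summits and protein-coding genes (by midpoint, RefSeq, GRCm38.p6) were counted in bins of 1 Mb. A gene had a peak at an end if a peak touched the window of 1 kb around either annotated end. Whole pileups were recovered from fold and −log10 p for 100% of peaks (tolerance 0.002), taking the fold as the pileup plus 1 over the background plus 1. The named bins are the 5 densest and 5 emptiest complete bins of each chromosome. Their named genes are up to 3 of highest fold at an end and the longest gene of a dense bin, and all genes of an empty one. Further names are the 5 peaks of highest fold and members of the gene lists. Some genes that this rule names are not reported here. No test was made, since the chromosomes were chosen by density and 1 library was used. The scripts were tested on simulated data. The limits of 100 and 400 summits per bin were set after the values were seen. Alternatives covered peak thresholds, chromosome ends, bins, gene measures and windows. Python 3.11.15, pandas 2.3.3 and scipy 1.17.1 were used. The peaks left out at the chromosome ends numbered 3466 on chromosome 11 and 517 on chromosome 3. The folds of the peaks nearest these bounds were 3.26 and 3.91 just inside and 2.18 and 3.50 just outside on chromosome 11, and 4.58 and 4.04 inside and 2.31 and 3.59 outside on chromosome 3, at the low and the high bound in turn. Read depth is not given in the sources used here, and intervals are 95% exact Poisson or Clopper-Pearson intervals.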

Additional observations from a re-analysis of the deposited data

How the results depend on the processing

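Chromosome 11 held more peaks per Mb than chromosome 3 under every alternative run. The ratio of 1.87 was 1.73 with −log10 q of at least 5, 1.49 in the top 10% of peaks by fold, 1.99 without trimming of the chromosome ends, 2.07 by covered base pairs and 1.55 with summits within 1 kb merged. The correlation of peaks and genes on chromosome 11 (r = 0.67) was 0.79 in bins of 2 Mb, 0.55 with base pairs inside genes and 0.82 as Spearman's rho. It moved by less than 0.1 in the other 8 alternatives. On chromosome 3 (r = 0.67) it was 0.55 with base pairs inside genes and moved by less than 0.1 in the other 10. Leaving out the 5 bins with most genes, an alternative chosen after seeing the data and among those, gave 0.73 on chromosome 11 and 0.68 on chromosome 3. The share of genes with a peak at an end was 58.6% on chromosome 11 and 45.3% on chromosome 3 with −log10 q of at least 5, and 19.7% and 14.9% among the 10% of highest fold. It was 99.1% and 96.4% with a window of 5 kb, and 83.6% and 71.9% with 0.5 kb. These shares depend on the threshold and window by construction, and the cause of the other changes was not tested. The share was higher on chromosome 11 in each.

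No paired analysis was possible because both libraries form 1 group and no comparison between groups was made. Assembly gaps, mappability and base composition of the bins were not used here.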

Other observations

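Counts for other families stand beside the share of all genes with a peak at an end, 90.8% on chromosome 11 and 82% on chromosome 3, and nothing particular to a family is read from them. On chromosome 11, all 7 myosin heavy chain genes counted had one, from 6.73 at Myh8, of developing muscle, to 3.77 at Myh10, a non-muscle gene that held 69 summits in 125 kb. Of 12 chemokine genes, 11 did, led by Ccl5 with 5.66, and Ccl12 did not. Of 8 Schlafen genes, 7 did, led by Slfn8 and Slfn1 with 5.39, and Slfn3 did not. On chromosome 3, all 3 fibrinogen chain genes had one, with folds of 5.12 at Fgg and 4.85 at Fga and Fgb. Alcohol dehydrogenase genes had one in 5 of 6 cases, led by Adh7 with 5.74, and chloride channel accessory genes in 5 of 7, led by Clca3a1 and Clca3b with 5.39. Guanylate-binding protein genes had one in 2 of 5. The olfactory receptor gene Olfr1402 had a peak at an end with a fold of 3.23, and the other such gene of chromosome 3, Olfr266, had none.

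Dense bins with few genes were found as well. On chromosome 3 the bin from 9 to 10 Mb, with Zbtb10, Zfp704 and Pag1, held 409 summits, and that from 52 to 53 Mb, with Foxo1 and Cog6, held 310. On chromosome 11 the bin from 8 to 9 Mb, with Tns3, Pkd1l1 and Gm40814, held 305.

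Library 2 had 348 peaks in all, against 584724 in library 1, and 17 of the 348 overlapped a library 1 peak. For comparison, library 1 peaks covered 8.59% of the counted length of chromosome 11, 4.14% of chromosome 3 and 6.15% of the other autosomes. Whether the overlap exceeds what such coverage gives was not tested, so no agreement between the libraries is read from it. Within the counted stretches there were 6 on chromosome 11 and 2 on chromosome 3, and 1 of them, inside Cobl on chromosome 11 with a fold of 9.29, overlapped a library 1 peak. Among the library 2 peaks of chromosomes 11 and 3, the highest fold, 18.3, belonged to a peak at chr11:54140575-54140664, outside protein-coding genes.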
